A study of Mus musculus with 28 samples.

Results

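Potassium channel genes were examined as the mouse genes whose symbol begins with Kcn and whose mean normalized count over the libraries was at least 20. The rule kept 75 of the 97 Kcn genes listed, and the other 22 lay below that floor. Kcnj5 (20.1) and Kcnk4 (26.1) were the lowest kept, and Kcnrg (19.2) and Kcnk5 (16.1) the highest left out. By subfamily letter the members fall into 35 pore-forming genes of voltage-gated (Kv) channels (Kcna, Kcnb, Kcnc, Kcnd, Kcnf, Kcng, Kcnh, Kcnq, Kcns and Kcnv), 12 inward rectifiers (Kcnj), 9 two-pore-domain channels (Kcnk), 7 genes grouped as calcium- or sodium-activated channels (Kcnma, Kcnn, Kcnt and Kcnu), 10 auxiliary subunits (Kcnab, Kcnip and Kcnmb) and 2 non-coding transcripts named after a channel gene (Kcnq1ot1 and Kcnd3os). Kcnu1 was put with the calcium- or sodium-activated channels by name, and not because either ion opens it.

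The study labelled newly made RNA with bromouridine (Bru-seq) in cultures of CD1 mouse cortex and hippocampus from embryonic day 18, pooled over embryos and, per the labels, holding neurons, astrocytes and oligodendrocyte precursors. Lentivirus carrying a control hairpin (shCtrl) or a hairpin against Rai1 (shRai1), a chromatin regulator, was added on day 14 in vitro, so every culture was infected. On day 17 the cultures received water (vehicle), 1 µM tetrodotoxin (TTX, which blocks sodium channels and silences the network) or 20 µM bicuculline (BIC, which blocks GABA-A receptors and raises network activity) for 4 h, with 2 mM bromouridine in the last 20 min. The 16 libraries form 6 groups of 3, except shCtrl with vehicle and shCtrl with BIC, which have 2 each. By title, shCtrl with vehicle holds replicates 1 and 2, and shCtrl with BIC holds replicates 2 and 3. The titles name the aim, to find how Rai1 knockdown alters activity-dependent transcription.

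Potassium channels let potassium leave the cell, set the resting potential, end action potentials and limit repetitive firing. Kv channels open on depolarization, and their electrically silent members (Kcnf, Kcng, Kcns and Kcnv) make no channel alone but modify Kcnb partners. Inward rectifiers hold the resting potential, answer to G-protein-coupled receptors, or, as Kcnj10 does in glia, clear potassium. Two-pore-domain channels carry leak current, and calcium- or sodium-activated channels open after firing. Kcnip and Kcnab proteins bind Kv channels inside the cell, and Kcnmb proteins attach to the Kcnma1 channel.

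No value per library was used here. All log2 changes with their standard errors (SE) and adjusted p-values come from the authors' deposited tables of 7 comparisons, unless a contrast computed here is named. A gene was called where its adjusted p was under 0.05. Those tables list the same mean counts, as 1 DESeq2 fit over the 6 groups would give, and pull the changes of low genes toward 0: genes with a mean count of at most 1 reached at most 0.73 in either direction in the 4 drug responses, against 5.38 for genes at the floor or above. Depth per library is unknown from the files used. The hairpin's target is no check of the arms. Nascent Rai1 changed by 0.16 (SE 0.073) in shRai1 against shCtrl under vehicle, with an adjusted DESeq2 p of 0.357, and such a hairpin acts on the finished transcript. Of 18 activity-regulated genes, all 18 fell under TTX in both arms, while under BIC 11 rose and 2 fell in shCtrl and 15 rose and 2 fell in shRai1. Among all genes at the floor or above, 16.3% fell under TTX in shCtrl and 18.4% in shRai1. Under BIC 19.8% of them rose and 20% fell in shCtrl, and 25% rose and 26.1% fell in shRai1. Neuron markers summed to between 984 and 1249 FPKM (a read count scaled by depth and by full gene length, per the name of the deposited table) in the shCtrl conditions, astrocyte markers to between 291 and 367, oligodendrocyte-lineage markers to between 188 and 214, microglia markers to between 26.9 and 35.7 and endothelial and mural markers to between 8.1 and 9.25. Since cultures are mixed, fewer cells of a type and less new RNA per cell cannot be told apart.

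RefSeq promoter windows (250 bases before to 50 after the start, GRCm38.p6) were found for 52 of the 75 members. Shown are members with large falls under TTX (Kcnj2, Kcnf1, Kcnh8) and under BIC (Kcnip2, Kcnip3, Kcnc4), 3 windows without and 3 with a motif searched for. Capitals mark the CRE core (TGACG, either strand) in Kcnh8 and Kcnc4 and an AP-1 site (TGANTCA, either strand) in Kcnip3. Kcnip3 has 3 windows, of which the one holding the motif is printed.
Kcnj2, chr11:111065914-111066213, plus strand: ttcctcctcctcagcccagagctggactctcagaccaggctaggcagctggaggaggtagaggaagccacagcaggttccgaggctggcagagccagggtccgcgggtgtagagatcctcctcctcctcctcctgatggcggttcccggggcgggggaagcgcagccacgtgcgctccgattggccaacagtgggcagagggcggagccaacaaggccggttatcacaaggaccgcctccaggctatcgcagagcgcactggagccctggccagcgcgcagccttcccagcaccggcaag
Kcnf1, chr12:17176839-17177138, minus strand: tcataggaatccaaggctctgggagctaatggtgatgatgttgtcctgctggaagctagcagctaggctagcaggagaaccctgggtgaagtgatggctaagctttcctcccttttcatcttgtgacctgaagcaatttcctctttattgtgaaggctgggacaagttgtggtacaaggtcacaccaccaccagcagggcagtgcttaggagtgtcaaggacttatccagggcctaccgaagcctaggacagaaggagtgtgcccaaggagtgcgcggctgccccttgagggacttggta
Kcnh8, chr17:52602459-52602758, plus strand: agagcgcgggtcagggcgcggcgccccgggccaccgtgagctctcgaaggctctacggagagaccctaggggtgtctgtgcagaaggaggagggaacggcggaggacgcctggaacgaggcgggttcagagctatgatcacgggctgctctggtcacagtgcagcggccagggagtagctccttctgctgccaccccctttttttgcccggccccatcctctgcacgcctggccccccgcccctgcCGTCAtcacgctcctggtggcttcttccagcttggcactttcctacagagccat
Kcnip2, chr19:45816014-45816313, minus strand: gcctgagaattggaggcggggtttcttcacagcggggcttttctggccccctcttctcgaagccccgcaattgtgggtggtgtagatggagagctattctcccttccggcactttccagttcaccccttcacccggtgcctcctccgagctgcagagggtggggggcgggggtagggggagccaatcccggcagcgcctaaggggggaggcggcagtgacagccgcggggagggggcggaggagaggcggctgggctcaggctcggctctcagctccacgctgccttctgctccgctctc
Kcnip3, chr2:127522045-127522344, minus strand: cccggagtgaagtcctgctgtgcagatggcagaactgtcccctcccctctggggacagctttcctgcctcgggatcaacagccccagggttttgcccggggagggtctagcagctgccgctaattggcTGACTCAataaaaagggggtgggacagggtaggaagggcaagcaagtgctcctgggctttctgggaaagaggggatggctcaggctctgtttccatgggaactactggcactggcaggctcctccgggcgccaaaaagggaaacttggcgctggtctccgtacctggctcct
Kcnc4, chr3:107458849-107459148, minus strand: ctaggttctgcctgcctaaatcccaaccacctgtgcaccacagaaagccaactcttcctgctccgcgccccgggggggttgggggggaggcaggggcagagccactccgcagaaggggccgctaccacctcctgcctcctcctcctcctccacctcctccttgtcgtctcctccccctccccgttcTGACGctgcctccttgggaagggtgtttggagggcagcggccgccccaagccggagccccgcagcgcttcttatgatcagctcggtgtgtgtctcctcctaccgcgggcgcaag
The CRE core was in windows of 13 of the 52 members (25%), against 23% of all 27025 genes with a window. It was found in 4 of 20 members lower under TTX, 4 of 11 higher under TTX, 8 of 22 lower under BIC and 3 of 13 higher under BIC, by the response averaged over arms. The AP-1 site was in 3 members (Kcnip3, Kcnip4 and Kcnk2), 5.77% against 8.97% of all genes. The motif GCGTGGG, a core bound by EGR factors, was in 6 members, 11.5% against 5.74%. The full CRE (TGACGTCA, which holds the core on both strands) and the CArG box were in no member's window, and stood in 2.03% and 1.81% of all genes' windows. TATAAA was in 4 members (Kcnab1, Kcnj15, Kcnj16 and Kcnj9), 7.69% against 15.7%. A match is a description of these letters and no binding was measured at them here.

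Levels were read from the authors' deposited FPKM, 1 pooled value per shCtrl condition with its bounds. The median member stood at 7.72 FPKM under vehicle, and the members ran from 0.303 (Kcnu1) to 69.9 (Kcnq1ot1). Among Kv pore genes Kcnc1, which serves fast-spiking cells, stood at 49.4 (bounds 37.6 to 61.1), and Kcna1, an axonal subunit, was lower at 24.4 (19.0 to 29.9). Inward rectifiers were led by Kcnj4 at 36.1 (27.3 to 44.8), the glial Kcnj10 at 28.3 (21.9 to 34.7) and Kcnj2 at 20.8 (15.9 to 25.7), with neighbours in that order overlapping. The two-pore-domain genes Kcnk1 (20.9), Kcnk6 (14.1) and Kcnk3 (14.0) had overlapping bounds, as did the activity-gated Kcnn2 (22.6), Kcnma1 (21.7) and Kcnn1 (15.3). Kcnab2 (22.9), Kcnip2 (16.0) and Kcnip3 (13.8) were the highest auxiliary genes.

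**Figure D1:**
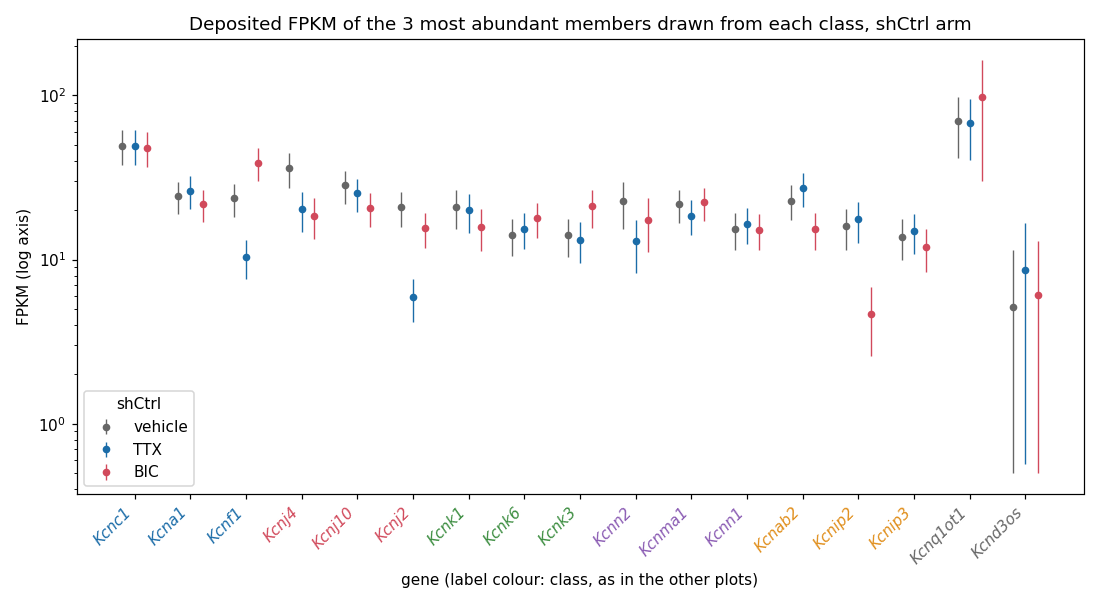
Deposited FPKM (log axis) of the 3 most abundant members drawn from each class, or both non-coding ones, in the shCtrl arm under vehicle, TTX and BIC, with bars for the deposited bounds (a bound at 0 is drawn at the foot of the axis). Kcnj2 stands at 5.9 under TTX against 20.8 under vehicle, and Kcnip2 at 4.7 under BIC against 16.0.

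Under TTX, members of every coding class moved, and the largest changes were falls. In shCtrl 17 members rose and 19 fell, and in shRai1 8 rose and 26 fell. Across the 14067 genes at the same floor, 12.7% rose and 16.3% fell in shCtrl, and 14.8% rose and 18.4% fell in shRai1. Members thus took 22.7% and 25.3% of their number in shCtrl, and 10.7% and 34.7% in shRai1. Their median log2 change was 0.05 in shCtrl and -0.18 in shRai1, against -0.0021 and 0.0015 over all genes. With members of a mean count of at least 50 the shCtrl median was -0.02, so its sign rests on the floor.

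Kcnj2, an inward rectifier that holds neurons near rest, fell most. Its deposited FPKM was 20.8 under vehicle, 5.9 under TTX and 15.6 under BIC, so that only the TTX bounds (4.19 to 7.61) lay apart from the others. The authors' deposited tables give it a TTX change of -2.02 (SE 0.15), 4.06-fold lower, in shCtrl and -1.56 (SE 0.14), 2.95-fold lower, in shRai1, with DESeq2-adjusted p of 1.28e-36 and 4.81e-27. Kcnj3 (-0.85 and -0.80), a G-protein-gated subunit, and Kcnj4 (-0.53 and -0.68) also fell in both arms. Kcnj12, a relative of Kcnj2, rose in both (0.59, SE 0.10, and 0.52, SE 0.090). Kcnj6, the G-protein-gated partner of Kcnj3, rose in shCtrl (0.43, SE 0.099) and was at 0.17 (SE 0.087, adjusted p 0.125) in shRai1.

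The 7 silent Kv subunit genes did not move as 1 group. Kcnv1 stood at 9.05 FPKM under vehicle, 2.25 under TTX and 3.47 under BIC in shCtrl. Under TTX it fell by 2.00 (SE 0.22) in shCtrl and by 1.31 (SE 0.20) in shRai1, by the authors' tables. Kcns2 fell by 1.59 (SE 0.17) and 1.14 (SE 0.15), Kcnf1 by 1.16 (SE 0.14) and 1.31 (SE 0.12), and Kcns3 by 0.90 (SE 0.12) and 0.81 (SE 0.11). All 4 calls held in both arms. Kcng2 rose in shCtrl (0.39, SE 0.15) and was not called in shRai1 (-0.26, SE 0.13, adjusted p 0.115), while Kcng1 and Kcng3 were called in neither arm.

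The Kcnh genes, relatives of ether-à-go-go channels, split. Kcnh8 (-1.50, SE 0.20, and -0.80, SE 0.18) and Kcnh7 (-0.84, SE 0.19, and -0.83, SE 0.17) fell in both arms under TTX. Kcnh6 rose in both, by 0.70 (SE 0.20) in shCtrl and 0.97 (SE 0.17) in shRai1. Kcnh4 had the largest rise of any member in shCtrl, 0.82 (SE 0.22, DESeq2-adjusted p 0.00125), and was at 0.48 (SE 0.20, adjusted p 0.0507) in shRai1. Kcnh1 and Kcnh3 rose in shCtrl (0.30 and 0.37) and were at 0.09 and -0.05, not called, in shRai1, and Kcnh2 fell in shRai1 (-0.29). Kcnh4, Kcnh6 and Kcnh8 are low genes, at 1.06, 0.714 and 0.525 FPKM under vehicle, and the lower bound of Kcnh8 is 0.

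Among the other Kv pore genes, Kcna4, an A-type subunit, fell by 1.03 (SE 0.14) and 1.01 (SE 0.13), and its FPKM went from 15.7 to 6.96. Kcna2, which sits beside axonal nodes, rose by call in both arms (0.39 and 0.41). Kcnq3 (-0.45 and -0.43) and Kcnq5 (-0.49 and -0.47), subunits of the M-current that restrains repetitive firing, fell in both arms. Kcnc4 rose in shCtrl (0.52, SE 0.16), and Kcnc1 (-0.50) and Kcnc2 (-0.32) fell in shRai1. Among activity-gated channels, the calcium-activated Kcnn2 fell in both arms (-0.96, SE 0.11, and -0.90, SE 0.10), and the sodium-activated Kcnt1 rose in both (0.69, SE 0.10, 1.62-fold, and 0.40, SE 0.090). Kcnma1, the large-conductance channel, fell in shRai1 (-0.47, SE 0.10) and was at -0.20 (SE 0.11, adjusted p 0.202) in shCtrl.

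Of the leak channels, Kcnk10 (-0.35 and -0.69), Kcnk3 (-0.36 and -0.56) and Kcnk2 (-0.35 and -0.30) fell in both arms, and Kcnk9 rose in shRai1 (0.42, SE 0.12). Of the 10 auxiliary genes 1 rose and 1 fell in shCtrl, and 1 rose and 4 fell in shRai1. Over all genes 12.7% rose and 16.3% fell in shCtrl, and 14.8% rose and 18.4% fell in shRai1. Kcnip4, a partner of Kcnd channels, fell in both (-0.72, SE 0.23, and -0.62, SE 0.21), and Kcnip3 rose in shRai1 (0.31, SE 0.089) and was at 0.02 (SE 0.10) in shCtrl. Neither non-coding transcript was called. In the shCtrl arm the deposited FPKM, made from the same libraries, moved the way of the log2 change in 35 of the 36 called members, with Kcnd3 the exception.

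**Figure D2:**
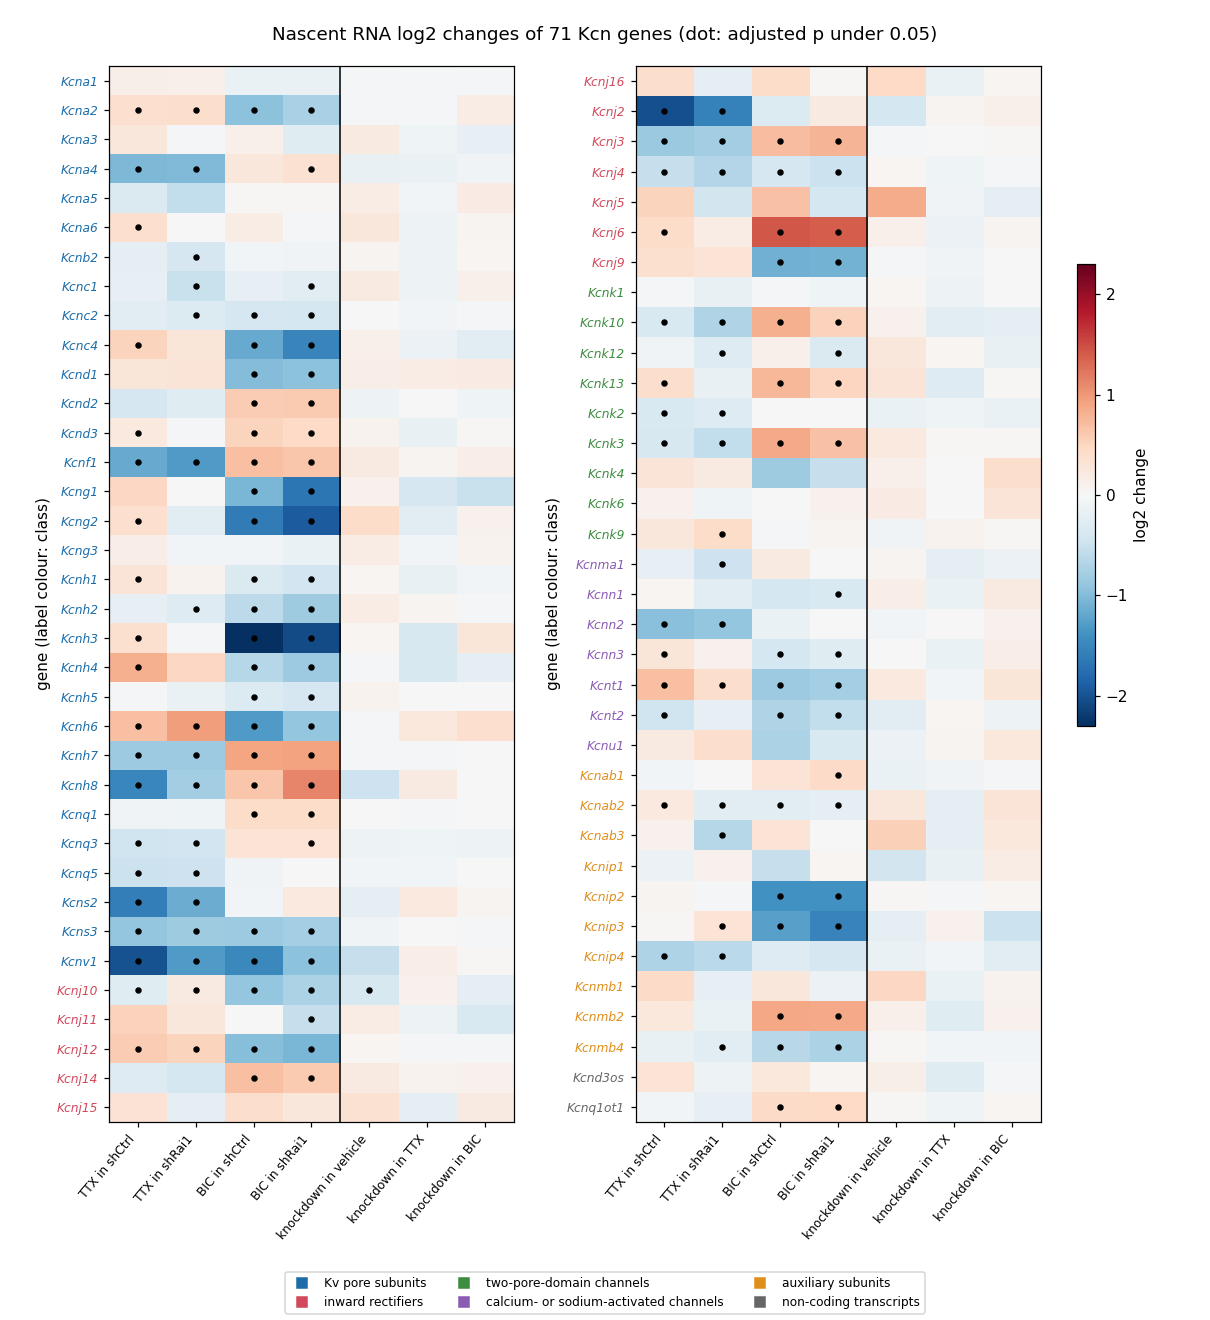
Deposited log2 change (colour) of 71 of the 75 members in the 4 drug responses and the 3 knockdown comparisons, with a dot where the adjusted p is under 0.05 and the label colour giving the class. The darkest blue cells are Kcnj2 and Kcnv1 under TTX and Kcnh3 under BIC, the darkest red Kcnj6 under BIC, and the knockdown columns hold 1 dot, Kcnj10 under vehicle.

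Under BIC more members fell than rose in both arms. In shCtrl 14 rose and 28 fell, and in shRai1 18 rose and 32 fell. Over all genes 19.8% rose and 20% fell in shCtrl, and 25% rose and 26.1% fell in shRai1, so that the members' shares of rises (18.7% and 24%) were near the background and those of falls (37.3% and 42.7%) were above it. The members' median log2 change was -0.08 and -0.15, against -0.04 and -0.02 over all genes. By class, 17 of 35 Kv pore genes fell and 6 rose in shCtrl (18 and 9 in shRai1), while of 9 two-pore-domain genes none fell and 3 rose in shCtrl, and 1 fell and 3 rose in shRai1.

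Kcnh3, an ether-à-go-go relative of the forebrain, fell most. It stood at 10.6 FPKM under vehicle, 11.4 under TTX and 3.79 under BIC, and the BIC bounds (2.05 to 5.53) lay below both others. In the authors' deposited tables it changed by -2.28 (SE 0.19), 4.87-fold lower, in shCtrl and -2.06 (SE 0.15), 4.17-fold lower, in shRai1, with DESeq2-adjusted p of 2.78e-30 and 3.49e-39. Its listed interval also holds Mcrs1 and 1700120C14Rik, and how shared reads were counted is not given in the sources used here. All 8 Kcnh genes were called in both arms. Of all 14067 genes, 2611 rose and 2477 fell under BIC in both arms. Besides Kcnh3, the falls were Kcnh6 (-1.31, SE 0.24, and -0.89, SE 0.20), Kcnh4 (-0.65 and -0.83), Kcnh2 (-0.60 and -0.81), Kcnh1 (-0.33 and -0.43) and Kcnh5 (-0.32 and -0.39), and the rises were Kcnh7 (0.90, SE 0.21, and 0.93, SE 0.17) and Kcnh8 (0.64, SE 0.20, and 1.13, SE 0.17). Kcnh6 was listed at 0 FPKM under BIC, so no FPKM ratio is given.

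Silent subunits fell under BIC except Kcnf1, which rose (0.70, SE 0.14, and 0.63, SE 0.11), and Kcns2 and Kcng3, which were not called. The authors' deposited tables give Kcng2 -1.60 (SE 0.19) and -1.92 (SE 0.15), Kcng1 -1.05 (SE 0.33) and -1.67 (SE 0.30), Kcnv1 -1.49 (SE 0.23) and -0.94 (SE 0.20), and Kcns3 -0.83 and -0.78. The FPKM of Kcng2 moved much less than its log2 change, from 2.85 to 2.24 with wide bounds. Kcnb2, a delayed rectifier and partner of silent subunits, was at -0.06 and -0.07, not called. Kcnc4 fell by 1.15 (SE 0.19) and 1.52 (SE 0.16), and Kcna2 by 0.95 and 0.75. The Kcnd genes, which carry the dendritic A-type current, split: Kcnd1 fell (-0.99 and -0.95), and Kcnd2 (0.58 and 0.60) and Kcnd3 (0.51 and 0.46) rose.

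Kcnip2 and Kcnip3, calcium-binding partners of Kcnd channels, fell together. Kcnip2 went from 16.0 to 4.7 FPKM, and the authors' deposited tables give -1.40 (SE 0.14) and -1.39 (SE 0.11). Kcnip3, also known as the transcriptional repressor DREAM, changed by -1.24 (SE 0.12) and -1.53 (SE 0.098), although its FPKM was 13.8 under vehicle and 11.9 under BIC with overlapping bounds. Kcnip1 and Kcnip4 were not called. Kcnmb2, which inactivates the Kcnma1 channel, rose (0.89, SE 0.13, and 0.87, SE 0.10), and Kcnmb4, its neuronal relative, fell (-0.63 and -0.73). Kcnma1 itself was at 0.21 (SE 0.13) and 0.01 (SE 0.10).

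Kcnj6 rose most under BIC. Its FPKM was 13.6 under vehicle, 19.0 under TTX and 33.1 under BIC, and the BIC bounds (24.9 to 41.2) lay above those of vehicle (9.75 to 17.4). In the authors' deposited tables it changed by 1.43 (SE 0.11), 2.69-fold, in shCtrl and 1.39 (SE 0.087), 2.62-fold, in shRai1, with DESeq2-adjusted p of 1.95e-36 and 7.31e-56. Its partner Kcnj3 rose too (0.72, SE 0.14, and 0.78, SE 0.11), while Kcnj9, also G-protein-gated, fell (-1.10, SE 0.21, and -1.09, SE 0.17), as did Kcnj12 (-0.98 and -1.05), Kcnj10 (-0.89 and -0.72) and Kcnj4 (-0.39 and -0.49). The shCtrl FPKM of Kcnj12 was 9.87 under vehicle and 10.9 under BIC with overlapping bounds, so its fall is not seen in FPKM. Kcnj2 was called in neither arm (-0.32, adjusted p 0.113, and 0.20, adjusted p 0.204). The leak channels Kcnk3 (0.87, SE 0.10, and 0.68, SE 0.082), Kcnk10 (0.82, SE 0.10, and 0.52, SE 0.079) and Kcnk13 (0.76, SE 0.14, and 0.49, SE 0.11) rose in both arms. Among activity-gated channels Kcnt1 (-0.83 and -0.77), Kcnt2 (-0.70 and -0.57) and Kcnn3 (-0.41 and -0.28) fell in both, and none rose. The FPKM of Kcnt1 was 6.17 under vehicle and 6.06 under BIC, and that of Kcnt2 1.05 and 0.983, with overlapping bounds, so the fall in the log2 change is not seen at that size in FPKM. Kcnj14 rose (0.70 and 0.60), and Kcnc2 (-0.39 and -0.41) fell.

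Kcnq1 and Kcnq1ot1 cannot be told apart here. Kcnq1ot1 is an imprinted antisense transcript within Kcnq1, and both have the same listed interval. Kcnq1 had a mean count of 17861 with 0.570 FPKM, and Kcnq1ot1 a mean count of 3520 with 69.9 FPKM. Under BIC the authors' deposited tables give 0.42 in both arms for Kcnq1, and 0.43 and 0.45 for Kcnq1ot1. Of the 42 members called under BIC in shCtrl, 37 had the same sign in FPKM (Kcnt1 by a log2 ratio of -0.03 and Kcnt2 by -0.10), Kcnd3, Kcnh5, Kcnj12 and Kcnq1 moved the other way, and Kcnh6 was at 0. In all, 13 members share their listed interval with another listed gene, also Kcnip1 with Kcnmb1 and Kcnd3 with Kcnd3os.

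The response to each drug was next compared between arms, which share no library. Every BIC call of shCtrl recurred in shRai1: 14 of 14 rises and 28 of 28 falls. Over all genes 93.9% of the rises and 88.0% of the falls recurred. They were 77.8% of the 18 rises and 87.5% of the 32 falls in shRai1, against 74.4% and 67.4% over all genes. For TTX, 17 of the 19 falls of shCtrl recurred (89.5%, against 73.2% over all genes), and they were 65.4% of the 26 falls in shRai1 (64.8% over all genes). Of the 17 TTX rises 5 recurred (29.4%, against 63.2% over all genes), 62.5% of the 8 in shRai1 (54.2% over all genes), among them Kcna2, Kcnh6, Kcnj12 and Kcnt1. TTX rises called in shCtrl alone included Kcna6, Kcnab2, Kcnc4, Kcnd3, Kcng2, Kcnh1, Kcnh3, Kcnh4, Kcnj6, Kcnk13 and Kcnn3, for which the difference between arms passed the test only for Kcnab2 and Kcnk13. Called in shRai1 alone under BIC were, among others, the rises of Kcna4 (0.35), Kcnab1 (0.44) and Kcnq3 (0.31) and the falls of Kcnc1 (-0.26), Kcnj11 (-0.53), Kcnk12 (-0.33) and Kcnn1 (-0.35), and none of these differed between arms by the test. Averaged over the arms, with the Wald test computed here, 16 members rose and 26 fell under TTX (all genes 20.3% and 23.3%), and 17 rose and 32 fell under BIC (all genes 27.8% and 30.9%).

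**Figure D3:**
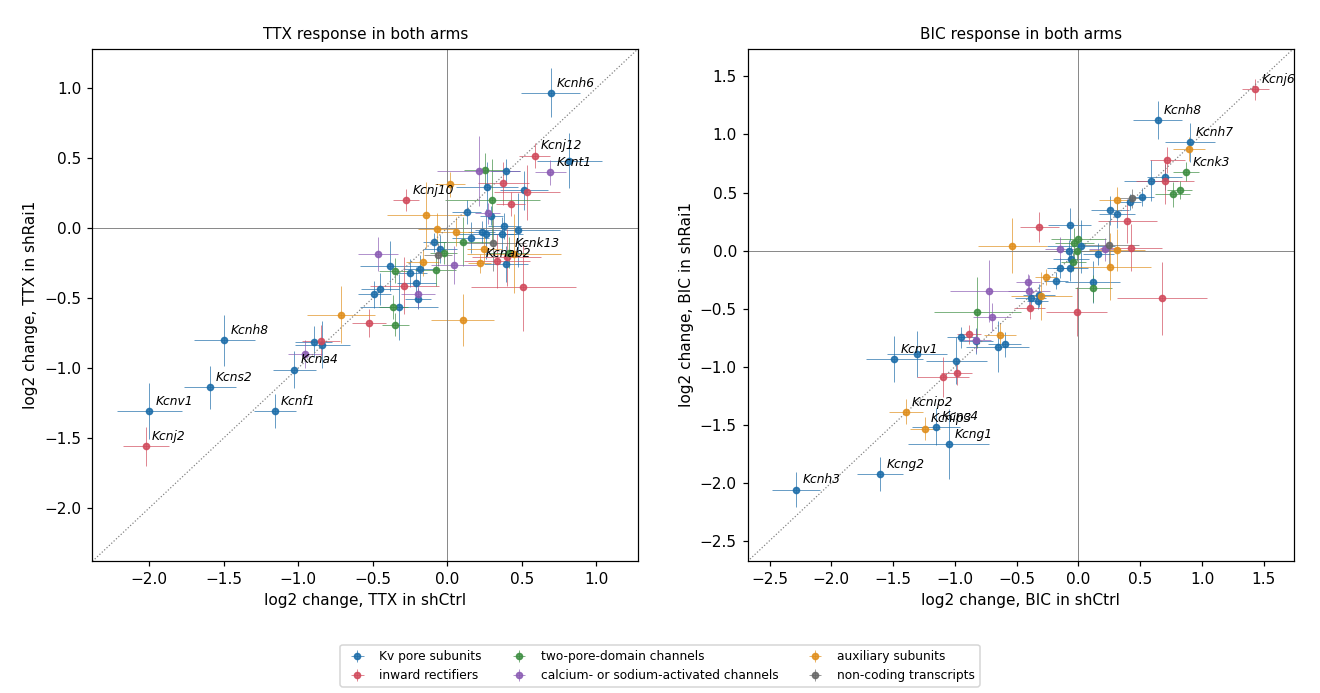
Log2 change of the same 71 members in shCtrl (horizontal) against shRai1 (vertical) with standard errors, for TTX on the left and BIC on the right, coloured by class, and a dotted line of equal response. The BIC points follow the line from Kcnh3 (-2.28 and -2.06) to Kcnj6 (1.43 and 1.39), and Kcnj10, Kcnab2 and Kcnk13 lie on opposite sides of 0 in the 2 arms under TTX.

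The TTX response differed between arms for 3 members, tested as shRai1 minus shCtrl. Over all genes this interaction was higher for 0.832% and lower for 0.505%. Kcnj10, the glial inward rectifier at chr1:174271341-174304216, fell under TTX in shCtrl (-0.27, SE 0.087) and rose in shRai1 (0.20, SE 0.077). The difference was 0.48 (SE 0.12, 95% interval 0.25 to 0.70, Benjamini-Hochberg adjusted Wald p 0.00854). Kcnab2, a Kv beta subunit at chr4:151764849-151851658, rose in shCtrl (0.22, SE 0.079) and fell in shRai1 (-0.25, SE 0.069). Its difference was -0.47 (SE 0.11, interval -0.68 to -0.26, adjusted Wald p 0.00296). Kcnk13, a leak channel at chr12:101202709-101300892, rose in shCtrl (0.41, SE 0.13) and was at -0.18 (SE 0.11, adjusted p 0.237) in shRai1. Its difference was -0.59 (SE 0.17, interval -0.92 to -0.26, adjusted Wald p 0.0379). Kcng2 had the next smallest p, with a difference of -0.65 (SE 0.20, adjusted p 0.0583). At an unadjusted p under 0.05 there were 21 members, 6 higher and 15 lower, where 11.3% of all genes passed. The members' median difference was -0.14, against -0.0028 over all genes.

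For BIC no member's response differed between arms, where 0.0284% of all genes were higher and 0% lower by the same Wald test. The smallest p were those of Kcnj2, with a difference of 0.52 (SE 0.20, interval 0.12 to 0.92), and Kcnk12, with -0.45 (SE 0.19, interval -0.82 to -0.07), both at an adjusted Wald p of 0.9999. At an unadjusted p under 0.05 there were 4 members, 1 higher and 3 lower, against 3.6% of all genes.

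**Figure D4:**
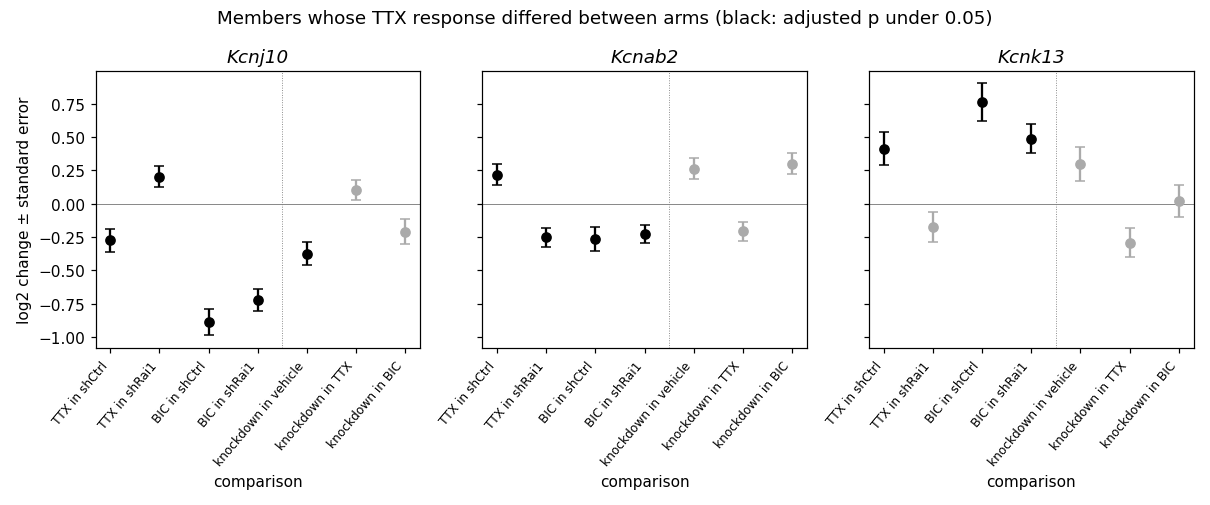
Log2 change with standard error of Kcnj10, Kcnab2 and Kcnk13 in the 4 drug responses and 3 knockdown comparisons, black where the adjusted p is under 0.05. The TTX values of each gene stand on opposite sides of 0 in the 2 arms, and of the knockdown values only that of Kcnj10 under vehicle (-0.37) is black.

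The knockdown comparisons called 1 member. Under vehicle Kcnj10 was lower in shRai1, by 0.37 (SE 0.087) in the authors' deposited table with a DESeq2-adjusted p of 0.00787, 1.30-fold, while 0.128% of all genes were higher and 0.739% lower. Under TTX it was at 0.10 (SE 0.077) and under BIC at -0.21 (SE 0.093), neither called. The vehicle libraries are shared between this comparison and the TTX difference of Kcnj10. Over the members, vehicle changes ran from -0.53 (Kcnv1) to 0.86 (Kcnj5), with 16 at an unadjusted p under 0.05, 11 higher and 5 lower, where 11.3% of all genes passed.

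Markers of the oligodendrocyte lineage also moved in the comparisons that called these 3 members. Of its 12 markers 8 reached the floor, and under vehicle 4 were lower in shRai1 and none higher, with a median of -0.67. In the TTX interaction 5 of the 8 were higher and none lower, with a median of 0.93. Pdgfra, which defines the precursors, was at -1.37 (SE 0.13) in the first and 1.86 (SE 0.17) in the second, and Mbp, a myelin gene, at 0.16 and -0.35, neither called. Of 12 astrocyte markers 10 reached the floor, and under vehicle all 10 were below 0 (median -0.21) with 1 called, while in the interaction none was called (median 0.13). Of the 18 activity-regulated genes, 5 were lower under vehicle and 4 higher in the interaction. Among all genes 0.128% were higher and 0.739% lower under vehicle, and 0.832% higher and 0.505% lower in the interaction. Of 15 neuron markers, all at the floor or above, 1 was called in each: Rbfox3, which marks neuronal nuclei, was higher under vehicle (0.24, SE 0.068, DESeq2-adjusted p 0.0494) and lower in the interaction (-0.40, SE 0.090, adjusted Wald p 0.00374). The neuron medians were -0.09 and -0.0027. The part of these in the values of Kcnj10, Kcnab2 and Kcnk13 was not tested.

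With TTX in both arms, no member differed by knockdown, and 0.0213% of all genes were higher and 0.0213% lower. There were 10 members at an unadjusted p under 0.05, all lower in shRai1, against 4.46% of all genes in either direction, and the members ran from -0.39 (Kcng1) to 0.24 (Kcnh6). The 2 smallest p were those of Kcnab2 (-0.21, SE 0.070, DESeq2-adjusted p 0.898) and Kcnk10 (-0.25, SE 0.082, adjusted p 0.892). With BIC in both arms, no member was called either, and 0.00711% of all genes were higher and 0.00711% lower. There 6 members had an unadjusted p under 0.05, 3 higher and 3 lower, against 3.98%. The authors' deposited table puts Kcnip3 nearest to a call, at -0.49 (SE 0.11, DESeq2-adjusted p 0.0581), which passed with the adjustment over genes at the floor or above and with centring on the median of all genes, followed by Kcnab2 at 0.30 (SE 0.080, adjusted p 0.348).

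TTX and BIC in the same arm share their vehicle libraries, so the drugs were compared between arms. Of the 17 members that rose under TTX in shCtrl, 13 fell under BIC in shRai1. They made 76.5% of the first and 40.6% of the second list, against 59.6% and 28.9% over all genes. Another 3 rose (Kcnd3, Kcnj6 and Kcnk13), 17.6% and 16.7%, against 8.97% and 4.56% over all genes. Of the 19 that fell under TTX in shCtrl, 8 rose under BIC in shRai1 (42.1% and 44.4%, against 55.4% and 36.2%) and 5 fell (26.3% and 15.6%, against 12.4% and 7.73%). With the arms exchanged, 7 of the 8 TTX rises of shRai1 fell under BIC in shCtrl and none rose (87.5% and 0%, against 41.5% and 8.67% over all genes). Of the 26 TTX falls of shRai1, 6 rose and 7 fell under BIC in shCtrl (23.1% and 26.9%, against 41.2% and 14.6%).

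Members called in both arms under both drugs form 3 patterns, given side by side because the vehicle libraries are shared within an arm. Those that rose under TTX and fell under BIC included Kcna2, Kcnh6, Kcnj12 and Kcnt1. Kcnf1, Kcnh7, Kcnh8, Kcnj3, Kcnk3 and Kcnk10 fell under TTX and rose under BIC. Kcnv1, Kcns3 and Kcnj4 fell under both drugs, Kcnv1 by 2.00 and 1.31 under TTX and by 1.49 and 0.94 under BIC. No member was called higher under both drugs in both arms, and Kcnd3, Kcnj6 and Kcnk13 were in shCtrl. In all, 61 members were called in at least 1 of the 4 responses, 81.3% of 75, against 68.5% of all genes. The other 14 were Kcna1, Kcna3, Kcna5, Kcng3, Kcnip1, Kcnj5, Kcnj15, Kcnj16, Kcnk1, Kcnk4, Kcnk6, Kcnmb1, Kcnu1 and Kcnd3os. Of these, Kcna5 fell under TTX (-0.45, SE 0.18) and Kcnk4 (-0.67, SE 0.23) and Kcnu1 (-0.54, SE 0.20) fell under BIC by the response averaged over arms.

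**Figure D5:**
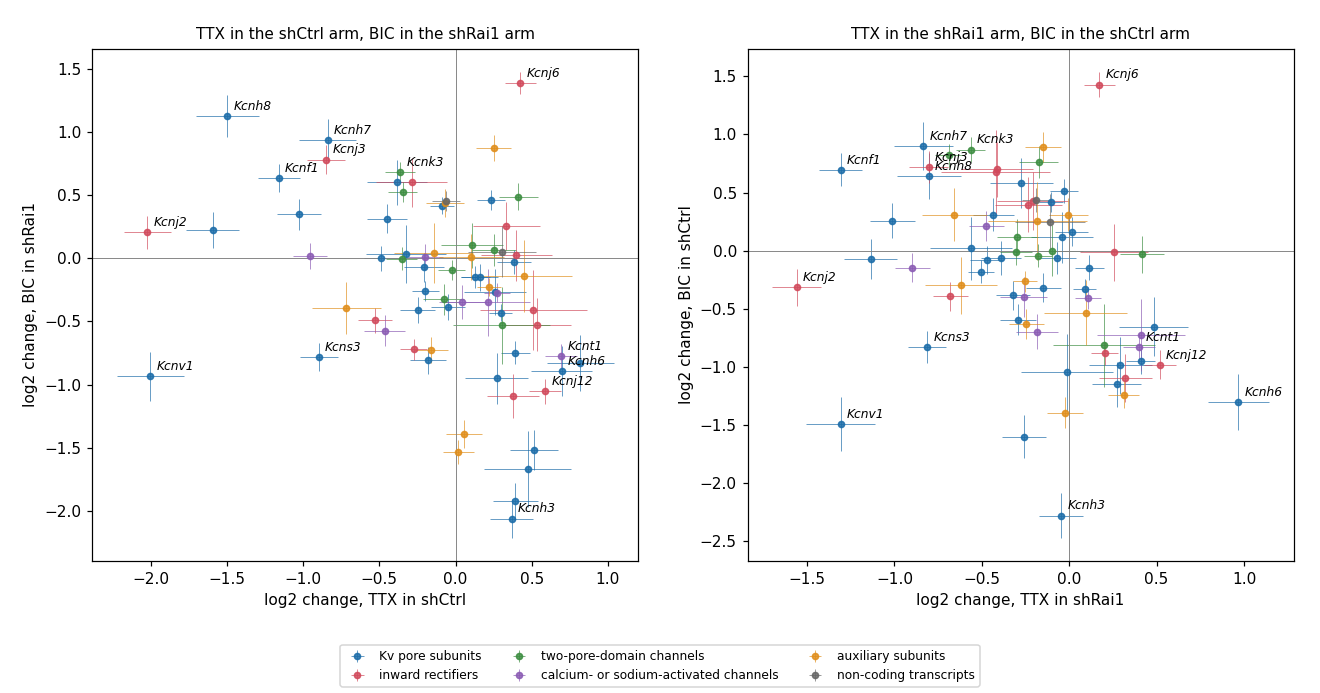
Log2 change of 71 members under TTX (horizontal) against that under BIC (vertical) taken from the other arm, with standard errors, so that the 2 values of a point share no library. Kcnh7, Kcnh8, Kcnf1 and Kcnj3 lie at the upper left in both panels, Kcnt1, Kcnj12 and Kcnh6 at the lower right, Kcnv1 and Kcns3 at the lower left, and Kcnj6 at the top.

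Among members within 250 kb of each other, calls differed between neighbours in several cases (intervals as listed, mm9 per the submitters' processing notes). Kcnj16 at chr11:110829347-110889281 lies 38.2 kb from Kcnj2 at chr11:110927478-110938139. Under TTX Kcnj16 was at 0.40 (SE 0.23) and -0.21 (SE 0.20), not called, where Kcnj2 fell in both arms. Kcna3 (chr3:106839080-106841047) lies 63.4 kb from Kcna2 (chr3:106904485-106917923) and was called in none of the 7 comparisons, where Kcna2 was called in all 4 responses. Kcnj9 (chr1:174251164-174259394) lies 11.9 kb from Kcnj10, and both fell under BIC in both arms. Of Kcna5, Kcna1 and Kcna6, which lie together on chromosome 6, Kcna6 rose under TTX in shCtrl (0.38, SE 0.11) and the other two were called in none of the 7 comparisons.

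Of 28 genes whose products accompany potassium channels without a Kcn name, 25 reached the floor. Under TTX 4 of them rose and 10 fell in shCtrl and 5 rose and 8 fell in shRai1, and under BIC 11 rose and 7 fell in shCtrl and 15 rose and 7 fell in shRai1, by the authors' deposited tables. Over all genes the shares were 12.7% and 16.3%, 14.8% and 18.4%, 19.8% and 20%, and 25% and 26.1% in the same order. The accessory genes' median log2 change was -0.09 and -0.11 under TTX and 0.27 and 0.35 under BIC, against -0.0021, 0.0015, -0.04 and -0.02 over all genes. Rgs7 (2.01, SE 0.14, and 1.90, SE 0.11) and its anchor Rgs7bp (1.03 and 1.32), which speed the closing of G-protein-gated Kcnj channels, rose under BIC. Gnb5, from the same list, fell under BIC in both arms (-0.48, SE 0.097, and -0.50, SE 0.076). Amigo1, a partner of Kv channels, fell under BIC (-1.20, SE 0.18, and -1.07, SE 0.15). Cntn2, which gathers Kcna channels beside nodes, rose under TTX (1.33, SE 0.11, and 0.96, SE 0.097) and fell under BIC (-1.17, SE 0.14, and -1.33, SE 0.11). Cntnap1, from the same list, also rose under TTX (0.54 and 0.40) and fell under BIC (-0.56 and -0.52). Cntnap2 went the other way, with a rise under BIC (0.50, SE 0.13, and 0.58, SE 0.11). Under TTX Cntnap2 fell in shRai1 (-0.26, SE 0.11) and was at -0.29 (SE 0.12, DESeq2-adjusted p 0.0529) in shCtrl. Of the partners of Kcnd channels, Dpp10 rose under BIC in shRai1 (0.39, SE 0.11) and was at 0.29 (SE 0.14, adjusted p 0.0907) in shCtrl, and Dpp6 was at 0.12 and 0.10, not called. Kctd12, which binds GABA-B receptors upstream of Kcnj channels, was lower under vehicle in shRai1 (-0.64, SE 0.14) and differed in its TTX response by 1.07 (SE 0.19).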

How the data were processed

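Bru-seq libraries of 16 cultures in 6 groups were used, and 12 ChIP-seq samples were not analysed here. The submitters' processing notes name TopHat2 2.1.0, Bowtie2 2.2.6, DESeq2 and mm9, without their roles. The counting program, its use of strand and its gene models are not given in the sources used here. Per the file headers, each of the 7 tables gives the authors' mean normalized count over libraries (a signal scaled for depth), log2 change, standard error, Wald score, p-value and adjusted p-value for 22919 genes, of which 21192 had a test and 14067 had a mean of at least 20. The authors' deposited FPKM table pools libraries into 1 value with a lower and an upper bound for each condition, by full gene length per the file name. Starts are printed 1-based. Its 9 shRai1 columns were not used, because their names did not follow the deposited knockdown changes. The mean count was the same in all tables. The table of the knockdown under vehicle carries no gene names, so genes were named by their unique mean count, which named all 75 members, and the log2 changes then closed to within 1e-09.

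Nothing was refitted, since only summaries were at hand. Interactions (shRai1 minus shCtrl) and responses averaged over arms were computed here from the deposited changes and errors with two-sided Wald tests and Benjamini-Hochberg adjustment over the 14067 genes (Python 3.11.15, numpy 2.4.6, scipy 1.17.1, pandas 2.3.3), and this step was tested on simulated data. The p-values rest on 2 or 3 cultures a group, which the labels call biological replicates.

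Named with values were, in each response, the 6 largest rises and falls among called members, members called in a knockdown or interaction (otherwise the 2 smallest p), members called under both drugs in both arms, and the 3 highest FPKM per class. Some members are counted but not reported by name or drawn here. Others are named to account for the members or their subfamily. The members, classes, accessory genes, activity genes and markers were chosen with earlier results of these data known. Alternatives were other adjusted p limits, other sets of genes for the adjustment, floors of 5 and 50 for membership, centring on the median of all genes, a further log2 limit of 0.5, and the standard error of the interaction taken from the knockdown tables.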

Additional observations from a re-analysis of the deposited data

Results flagged for a closer look

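The TTX responses of 3 members differed between arms by the Wald test of the difference, shRai1 minus shCtrl. It was -0.47 for Kcnab2, 0.48 for Kcnj10 and -0.59 for Kcnk13 on the log2 scale. The alternatives that changed the computation were centring on the median of all genes, a floor of 5, and the standard error of the knockdown comparisons. Over these the adjusted Wald p ranged from 0.00296 to 0.00344 for Kcnab2, from 0.00832 to 0.00978 for Kcnj10 and from 0.0379 to 0.0438 for Kcnk13. The difference for each under BIC was 0.04 (SE 0.11), 0.17 (SE 0.13) and -0.28 (SE 0.18), none called. The 2 drugs share the vehicle libraries of both arms.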

How the results depend on the processing

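No paired analysis was possible because the files used hold no value per library, and for the same reason leaving out replicates and an edgeR test were not run. Among the alternative counts of called members and medians, 86 stayed within 1.5 times of the main count or within the members' median standard error of the main median, and 10 moved further. All 52 changes of members chosen by the naming rule kept their direction and call under centring. A further limit of 0.5 on the absolute log2 change left 17 members for TTX in shCtrl, 18 for TTX in shRai1, 32 for BIC in shRai1, 17 for the averaged TTX response, 1 (Kcnk13) for the TTX interaction and 0 for the knockdown under vehicle. At an adjusted p under 0.1 the knockdown called 2 members under vehicle (Kcnab2 besides Kcnj10) and 1 under BIC. That one, Kcnip3, was also the 1 member called under BIC with the adjustment over genes at a mean of at least 20, and with centring. Members of low count carry wide errors: Kcng1 and Kcnj5 had standard errors of 0.30 and 0.32 for BIC in shRai1.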

Other observations

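Listed lengths are given, as a description with no test, for the 62 members whose interval holds no other listed gene. Under BIC, by the response averaged over arms, the 12 that rose had a median interval of 204 kb (4.79 to 514) and the 29 that fell one of 42.2 kb (7.63 to 319). Under TTX the 21 that fell had a median of 144 kb (3.0 to 706) and the 16 that rose one of 42.4 kb (3.64 to 319). The members not called had medians of 32.3 kb under BIC (21 members) and 32.9 kb under TTX (25 members). The part of length in the calls was not tested.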
